A study of Drosophila melanogaster with 12 samples.

Results

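Adipokinetic hormone (Akh, FBgn0004552) and its receptor (AkhR, FBgn0025595) are the 2 genes described here, found by their symbols among 11236 genes measured in heads of Drosophila melanogaster. Both were chosen by values of these same libraries, Akh for its low level in males of monogamous populations and AkhR for its high level in females of monogamous populations. Those differences, and the others that rest mainly on the same values, are therefore given as descriptions with no test. Messenger RNA libraries had been made from heads of 6 laboratory populations, 1 library per sex and population, 12 in all. Monogamy had been imposed on 3 populations and polygamy on the other 3 for 117 generations, and every population then spent 1 generation in a common environment. The flies of all 4 groups (females and males of monogamous populations, females and males of polygamous ones, 3 libraries each) were virgins, kept with their own sex, and 4 days old. No source used here names the founding strain or says how many heads made a library. Replicates are separate populations, so the spread within a group is the spread between populations.

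AKH is a short peptide made by the neurosecretory cells of the corpora cardiaca, the insect counterpart of the cells that make glucagon. In the adult fly these cells lie along the foregut behind the head, beside the corpora allata, the source of juvenile hormone. Released when energy is short, AKH acts on a G-protein-coupled receptor of fat body cells, where cyclic AMP and calcium signals drive the breakdown of stored triglyceride and glycogen and raise circulating trehalose. AkhR is also found in some neurons, among them gustatory neurons. In bulk heads, fewer cells of a type and less RNA per cell cannot be told apart.

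Recovered depth was 34558521 to 52282995 reads per library, and the deposited values are reads per gene scaled by 1 factor per library. Akh rested on 170 to 1448 reads per library and AkhR on 2125 to 7600, and the lowest value of Akh, 226, has a 95% exact Poisson interval of 193 to 263, which covers counting error only. The female library of monogamous population 1 stood apart. Its summed value over 5 neuron genes was 34514, against 129511 to 187811 in the other 11 libraries, and values without it are given beside the results it moves most. Differences are on the log2(value + 1) scale, fitted with limma to the 10568 genes with a mean value of at least 10, and an adjusted p under 0.05 after Benjamini-Hochberg correction over those genes counted as a call. The median gene lay 0.13 log2 units higher in males on the deposited scale and 0.02 higher after TMM rescaling (an alternative library scaling), a shift that bears on every small sex difference given here.

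Akh RNA was higher in 1 group than in the other 3. In males of the 3 polygamous populations its normalised values were 1623, 1169.9 and 1324. In males of the 3 monogamous populations they were 257, 324 and 429.5. The groups do not overlap, and the highest monogamous male library lay below the lowest polygamous one. The means were 1372 ± 230.5 and 337 ± 87.1 (SD, n = 3 each), a ratio of 4.08. As a fitted difference this was -2.04 log2 units (SE 0.37, monogamous minus polygamous), and 29 of the 10568 genes lay lower. Because Akh was picked for this difference, the background is given and nothing is read from it: 18.1% of tested genes had monogamous male values wholly below the polygamous ones.

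Females did not share that separation. Akh values in monogamous females were 236, 381 and 451, and in polygamous females 633, 226 and 467. The groups overlap, and both the lowest and the highest female libraries were polygamous. The means were 356 ± 110 and 442 ± 204 (SD, n = 3 each). The fitted difference was -0.24 log2 units (95% interval -1.05 to 0.57, SE 0.37), with a limma adjusted p of 0.695 and a two-sided exact permutation p of 0.7 (3 against 3 cannot go below 0.1). The difference changed sign, to 0.03, without the outlying female library of monogamous population 1, and to 0.08 without polygamous population 1. As a fold the interval spans 0.483 to 1.48 times the polygamous level, so these populations leave room for a difference in either direction within those bounds.

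**Figure D1:**
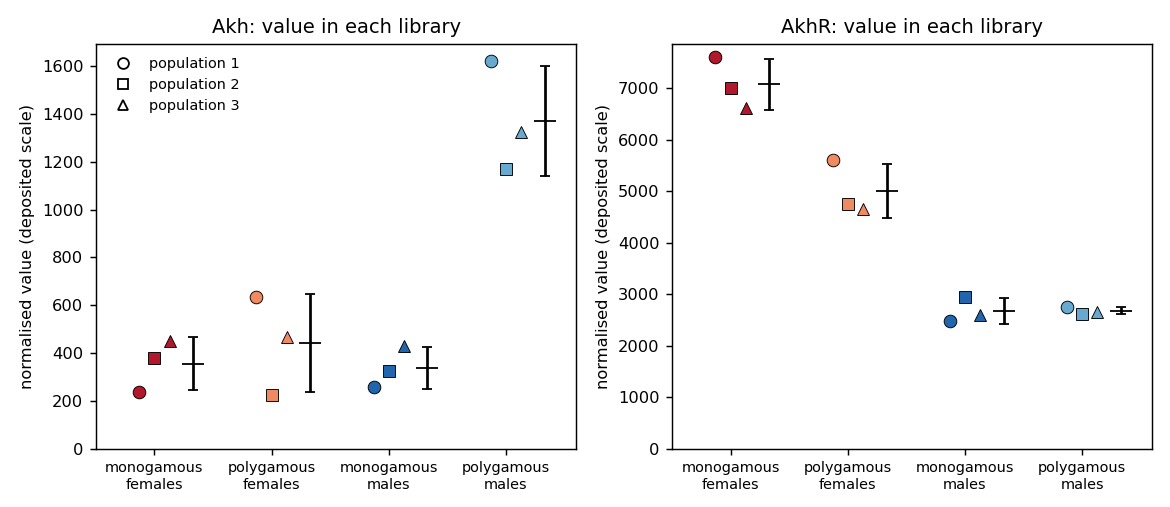
Normalised value of Akh (left) and AkhR (right) in each of the 12 libraries, by group. Circles, squares and triangles are populations 1, 2 and 3 of each mating system, and the bars give the mean ± SD of 3 populations. Akh stands high in polygamous males, where all libraries exceed 1160, and AkhR is higher in every female than in every male library.

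Population by population, the sexes differed in Akh under polygamy and were close under monogamy. Males held 2.57, 5.18 and 2.84 times the female value in polygamous populations 1, 2 and 3. In monogamous populations 1, 2 and 3 the ratios were 1.09, 0.85 and 0.95. All 3 polygamous male libraries lay above all 3 polygamous female ones, as they did for 36.8% of genes tested. Whether the sex difference itself depends on the mating system was not tested, because it holds the male values by which Akh was chosen. The fitted difference of differences was -1.80 log2 units (SE 0.52).

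Averaged over both mating systems, the fitted Akh level was 0.84 log2 units higher in males (SE 0.26), or 1.79-fold. It was higher in males in 4 of 6 populations. Because the male libraries by which Akh was chosen form 1 arm of this comparison, and the excess lay in the polygamous populations, the value is a description with no test. It was 0.73 after TMM rescaling and 0.66 with edgeR on the recovered reads.

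The populations of 1 group differed more in Akh than in most genes. Its within-group SD was 0.50 log2 units, larger than that of 95.6% of the 2542 genes within 1 log2 unit of its level, whose median was 0.16. The spread was widest among polygamous females, whose highest value was 2.80 times the lowest. Among polygamous males that ratio was 1.39.

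AkhR ran the other way, with more transcript in females. Its normalised values were 7600, 7007 and 6618.5 in monogamous females and 5611, 4759 and 4653 in polygamous females. In males they were 2479, 2949 and 2597 under monogamy and 2759, 2618 and 2662 under polygamy. Every female library lay above every male library, which held for 4.99% of tested genes. The order of the group means was monogamous females (7075 ± 494), polygamous females (5008 ± 525), and then both male groups (2675 ± 244 and 2679 ± 72.1, SD, n = 3 each), which did not differ beyond their spread.

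AkhR was 1.15 log2 units lower in males (SE 0.07), which is 0.45 times the female level (95% interval 0.406 to 0.499). It was lower in males in 6 of 6 populations. The female libraries by which AkhR was chosen form the female arm of this comparison, so the difference is a description with no test. The males, whose values were not used, lay below the lowest female library, a polygamous one at 4653, in all 6 populations. Of the 10568 genes, 108 fell further below their female level, and 9.27% were called lower in males. Females held 3.07, 2.38 and 2.55 times the male value in monogamous populations 1, 2 and 3. In polygamous populations 1, 2 and 3 the ratios were 2.03, 1.82 and 1.75. The monogamous and polygamous ratios do not overlap, a pattern that rests on the female values by which AkhR was chosen and was not tested. Taken as male minus female, the sex difference of AkhR under monogamy minus that under polygamy was -0.51 log2 units (SE 0.13).

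In females the receptor was 1.41 times as abundant under monogamy as under polygamy, a fitted difference of 0.50 log2 units (SE 0.10). The groups do not overlap. This is the contrast that chose AkhR, and 8.9% of tested genes had monogamous female values wholly above the polygamous ones. The outlying female library holds the highest AkhR value, and without it the difference was 0.45. In males the fitted difference was -0.01 log2 units (95% interval -0.22 to 0.20, SE 0.10), with a limma adjusted p of 0.999 and an exact permutation p of 0.9, and its sign varied with the scaling. As a fold that interval spans 0.86 to 1.15 times the polygamous level.

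**Figure D2:**
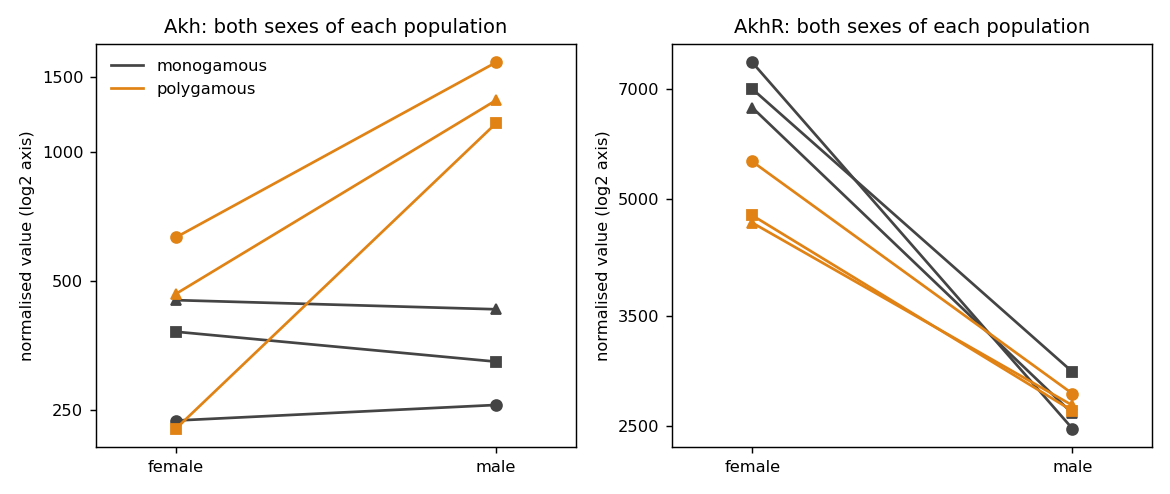
Female and male normalised values of Akh (left) and AkhR (right), joined within each population, on log2 axes. Circles, squares and triangles are populations 1, 2 and 3, dark lines are monogamous and orange lines polygamous populations. Akh climbs from females to males along the 3 orange lines and is nearly level along the 3 dark ones, while AkhR drops from females to males along all 6.

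The balance of receptor to hormone, which does not depend on the scaling of a library, set polygamous males apart. They held 1.70, 2.24 and 2.01 AkhR reads per Akh read in populations 1, 2 and 3. Monogamous males held 9.66, 9.10 and 6.05. Polygamous females held 8.87, 21.1 and 9.97, and monogamous females 32.2, 18.4 and 14.7. Per kilobase of exon (536 bases for Akh and 3182 for AkhR in a later annotation than the authors' build), Akh exceeded AkhR in the polygamous males alone among the 12 libraries. The level of Akh per kilobase was 2.65 to 3.49 times that of AkhR there and 0.184 to 0.982 times in the other 9. These ratios hold the values that chose both genes and carry no test. Akh lies on chromosome arm 3L and AkhR on 2L, and no other annotated gene overlaps either.

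Likeness to Akh was measured as Pearson's r of log2(value + 1) over the 12 libraries. CG14075, an uncharacterised gene, came first (r = 0.994). Its values in polygamous males were 1734, 1103 and 1409.8, and in monogamous males 253, 350.2 and 487. Monogamous females held 302, 408 and 493, and polygamous females 673, 267 and 489. The 2 genes tracked each other library by library, down to the low polygamous female library of population 2, and Akh stayed within 0.781 to 1.06 times the CG14075 value in all 12. The next was jhamt (r = 0.942), the methyltransferase of juvenile hormone synthesis and a marker of the corpora allata. It held 420.4, 469 and 534.5 in polygamous males against 152, 243 and 212 in monogamous males, and 134 to 256 in females.

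After these came tra2, a splicing factor of sex determination (r = 0.924), Lhr, a heterochromatin protein (0.905), Fa2h, a fatty acid hydroxylase (0.890), and Or67b, an odorant receptor (0.885). Their levels varied less, and mean tra2 was 1299 in polygamous males and 1098 to 1185 in the other groups. The least alike were CG13360 (r = -0.924), CG3713 (-0.899) and Nost (-0.898). The high level in 3 libraries of 1 group carries much of each of these values, and by Spearman's rank correlation 3 of the 9 genes were again among the 9 selected. The libraries share groups and populations, so r is a description.

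**Figure D3:**
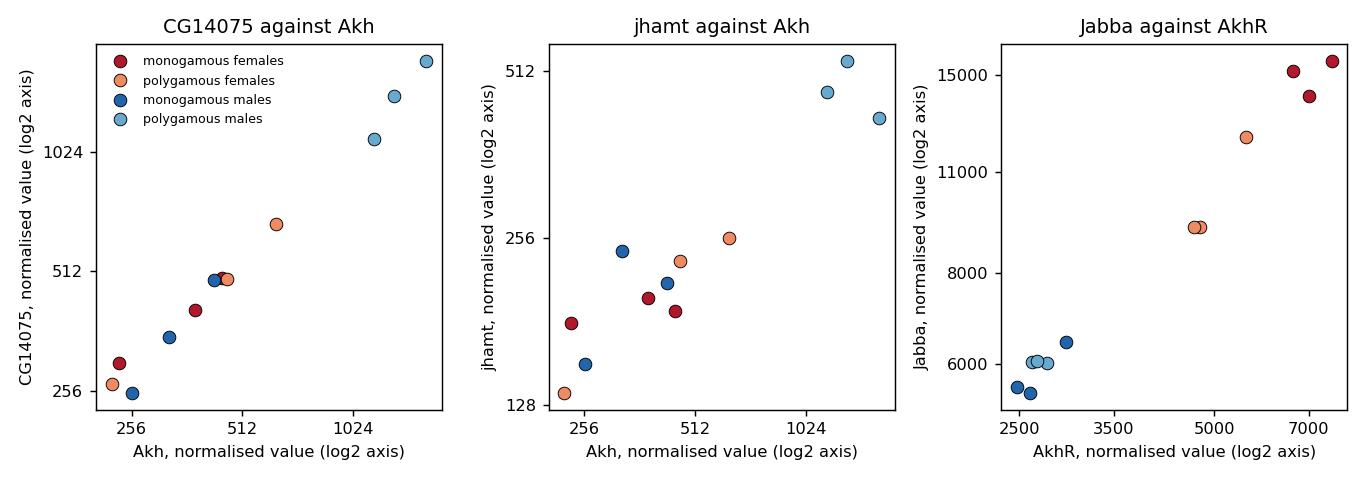
Each point is 1 of the 12 libraries, coloured by group, on log2 axes of normalised value. CG14075 lies along a line with Akh through all 4 groups (r = 0.994), jhamt follows Akh more loosely (r = 0.942), and Jabba lies along a line with AkhR (r = 0.992).

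The genes most like AkhR were Jabba, a lipid droplet protein (r = 0.992), Root, a ciliary rootlet protein (0.987), alpha-Est2, a carboxylesterase (0.985), CG7227 (0.982), rost (0.979) and eEF1gamma, a translation elongation factor (0.978). Jabba values were 15677, 14009 and 15190.5 in monogamous females, 12309, 9248 and 9246 in polygamous females, and 5467 to 6435 in the 6 males. AkhR stayed within 0.434 to 0.515 times the Jabba value in all 12 libraries. Jabba itself had a sex difference of -1.06 log2 units (SE 0.08), given with no test because Jabba was picked for its likeness to AkhR. CG6044 and CG14764 (both r = -0.99) and CG4230 (-0.988) ran most opposite to AkhR. By rank correlation 2 of the 9 genes were again selected.

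Markers of tissues near the corpora cardiaca lay on the same side as Akh between the male groups. Both corpora allata genes, jhamt and Cyp6g2, a cytochrome P450 of that gland, were lower in monogamous than polygamous males. The differences were -1.25 (SE 0.24) and -1.65 (SE 0.51, limma adjusted p = 0.204). The jhamt value is given with no test, because jhamt is among the genes most like Akh over these libraries. The summed value of jhamt and Cyp6g2 was 406 to 1140 in monogamous and 1672 to 3036 in polygamous males. In females it was 661 to 1353 and 1073 to 1784. Akh per unit of jhamt was 1.34 to 2.02 in monogamous males and 2.48 to 3.86 in polygamous males, so the separation was narrower but still without overlap after dividing by jhamt. Dividing by Cyp6g2 gave 0.361 to 1.01 and 0.456 to 1.30, which overlap. Both ratios hold the male values by which Akh was chosen, so they are descriptions with no test.

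Genes listed as flight muscle markers had the same sign in males. All 4 measured, of 5 listed, had negative fitted differences, from -2.85 for TpnC4, a troponin C of flight muscle (adjusted p = 0.186), to -0.57 for Act79B. Act79B is an actin not particular to flight muscle, and its reads may be shared with other actins. The summed value of the 4 was 8042 to 11590 in monogamous and 14729 to 18457 in polygamous males, with female libraries from 6915 to 16931. Act79B gave most of these sums, with means of 6692 of 10132 in monogamous and 9940 of 16532 in polygamous males. The polygamous female library of population 3 reached 16931 for muscle at an Akh value of 467. Both gut genes with a value, of 7 listed, were also negative, at -1.22 for alphaTry and -0.98 for Amy-p, with sums of 65.3 to 1212 in monogamous and 509.6 to 1176 in polygamous males, which overlap. Neither Cyp6g2 nor any of the muscle and gut genes passed the limma test in males. At an unadjusted p under 0.05 were 2 of 4 muscle and 0 of 2 gut genes, beside 11.5% of all genes. Among all genes, 43.7% had positive differences there, and 18.1% lay wholly lower in monogamous than in polygamous males. On the recovered reads edgeR called none of these genes, and DESeq2 called Cyp6g2 and TpnC4 lower under monogamy. In males edgeR called 1.08% of all genes and DESeq2 3.79%. The part of these tissues in the Akh difference was not tested.

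**Figure D4:**
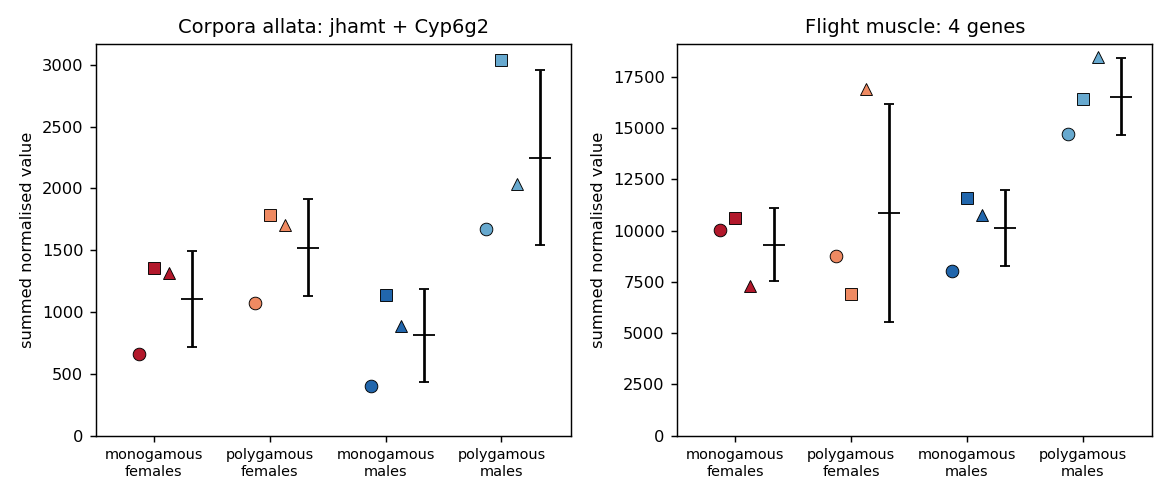
Summed normalised value of the corpora allata markers (left) and the listed flight muscle markers (right, mostly Act79B) in each library, by group, with the mean ± SD of 3 populations. Circles, squares and triangles are populations 1, 2 and 3. In both panels the 3 polygamous male libraries lie above the 3 monogamous male ones, as for 18.1% of single genes tested. For muscle, 1 polygamous female library is also high.

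Fat body genes had the same sign as AkhR between the female groups. All 4 measured, of 5 listed, had positive differences under monogamy in females, with a median of 0.53 and a range of 0.07 to 1.29, and in males, with a median of 0.49, where AkhR had a difference of -0.01. None passed the limma test in either sex, with 1 of 4 in males and 2 of 4 in females at an unadjusted p under 0.05. The shares of all genes were 11.5% and 17.7%. None was called by edgeR. DESeq2 called regucalcin in both sexes and Apoltp in females, beside 3.79% of all genes in males and 2.55% in females. Their summed values overlapped between female groups, at 113811 to 233148 under monogamy and 132112 to 186323 under polygamy, and the lowest sum belonged to the outlying library, which had the highest AkhR. Between the sexes the fat body genes were mixed. Of all genes, 20.2% were called higher in males and 9.27% lower. Apoltp, a lipid transfer protein, was lower in males (-0.61, adjusted p = 0.00437), regucalcin was higher (0.33, adjusted p = 0.0181, but 0.0943 with edgeR and 0.0889 after TMM rescaling), and apolpp and Lsp2 did not pass. The oenocyte genes FASN2 and Desat1 were lower in males as well (-0.92 and -0.46, adjusted p = 0.00328 and 0.0128), while Cyp4g1 was higher (2.89, adjusted p = 0.0163). The part of fat body or oenocyte content in the AkhR differences was not tested.

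The remaining genes of the AKH system were taken from 8 lists with 81 members, of which 73 were measured and tested. Between mating systems none was called in males, where 0.643% of all genes were called, and 10 (13.7%) had an unadjusted p under 0.05, near the 11.5% of all genes. On the recovered reads edgeR and DESeq2 each called 1 of the 73 in males (1.37%), beside 1.08% and 3.79% of all genes. None of the 73 was called in females, where limma called 0% of all genes, and 19 (26%) had an unadjusted p under 0.05, beside 17.7% of all genes. There edgeR called 0 and DESeq2 4 (5.48%, beside 2.55% of all genes). Between the sexes 37 of the 73 were called, 18 higher and 19 lower in males, against 29.5% of all genes, of which 20.2% were called higher and 9.27% lower. After TMM rescaling the split was 8 higher (11%) and 24 lower (32.9%), beside 8.01% and 14.5% of all genes. TMM removes most of the 0.13 that separates the sexes at the median gene. Without polygamous population 2 the count was 23 (31.5%, beside 16.2% of all genes). Without the outlying female library it was 54 (74%, beside 51.7%).

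Of 4 measured genes for cutting and amidating neuropeptide precursors, AKH among them, 3 were called higher in males and 0 lower, beside 20.2% and 9.27% of all genes. After TMM or upper-quartile rescaling or with edgeR 1 was called higher, and 8.01% of all genes were called higher after TMM. The convertase chaperone gene 7B2 did not pass (0.24, adjusted p = 0.0572). The prohormone convertase amon rose by 0.49 log2 units (SE 0.11, limma adjusted p = 0.00673), from 11270 ± 2605 and 13528 ± 723 in monogamous and polygamous females to 17469 ± 470.1 and 16771 ± 771 in males (SD, n = 3). The differences of Pal2, an amidating lyase, and svr, a carboxypeptidase, were 0.29 and 0.30, and neither call held after TMM rescaling. The 5 neuron genes were likewise all positive in males, as were 69.1% of all genes, with a median of 0.74. Of the 5, 1 was called (nSyb, 0.61, adjusted p = 0.044, not called by edgeR or DESeq2). Their median falls to 0.31 without the outlying, neuron-poor female library. All 5 were then called higher, beside 40.2% of all genes. The part of neural content in these differences was not tested.

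Genes that signal to or within the AKH cells were mostly higher in males where called, with 1 exception. Limostatin (Lst), a decretin that is itself made in the corpora cardiaca and restrains insulin release, fell by 0.94 log2 units in males (SE 0.13, adjusted p = 0.000591). Its values were 6563, 7628 and 7215 in monogamous females, 7562, 6013 and 5189.7 in polygamous females, 4061, 3166 and 4038 in monogamous males and 4058, 2666 and 3049 in polygamous males. The male groups overlap in Lst, with a fitted difference of 0.22 (adjusted p = 0.75). Akh per unit of Lst was 0.0632 to 0.106 in monogamous and 0.400 to 0.439 in polygamous males. This ratio holds the male values by which Akh was chosen and carries no test. Of the 13 genes measured 5 were called higher in males and 1 lower, beside 20.2% and 9.27% of all genes. The higher ones were the allatostatin peptides AstA (0.34) and AstC (0.44), short neuropeptide F (sNPF, 0.44), and the receptors AstC-R2 (0.56) and sNPF-R (0.43). The sNPF-R call was lost with populations as a replicate block (adjusted p = 0.05), after TMM rescaling (0.118), with edgeR (0.129) and with DESeq2 (0.0963). After TMM rescaling 4 of the 13 were called higher and 2 lower, beside 8.01% and 14.5% of all genes. AstA-R2, an allatostatin A receptor found on AKH cells, was at 135 ± 24.0 in monogamous and 85.9 ± 14.3 in polygamous males (0.64, adjusted p = 0.246).

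Downstream of the receptor, 17 genes of G-protein, cyclic AMP and calcium signalling were measured. All 17 had positive differences in males on the deposited scale, with a median of 0.30 beside 0.13 for all genes, and 4 (23.5%, near the 20.2% of all genes) were called higher: Orai, a calcium channel (0.30), Ggamma1, a G-protein subunit (0.37), SERCA, a calcium pump (0.26), and Sik3, a kinase that restrains lipolysis (0.23). None of the 17 was called after TMM rescaling. Without the outlying female library 16 were positive with a median of 0.21, and 14 were called higher and 1 lower, beside 40.2% of all genes called higher. Monogamous females, which include that library, varied widely in several of them, and Pka-R2 stood at 9589 ± 6574 there beside 14492 ± 969 in polygamous females. The part of neural content was not tested here either. SERCA and Sik3 were also lost with the replicate block (adjusted p = 0.0545 and 0.0911). On the deposited scale the sign of these differences was opposite to that of AkhR.

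Lipid droplet genes shared the female bias of AkhR. Of 6 measured 4 were lower in males and 0 higher, beside 9.27% and 20.2% of all genes. After TMM rescaling the counts were the same, beside 14.5% and 8.01% of all genes. Lsd-1, the perilipin through which AKH signals reach the droplet, fell by 1.03 log2 units (SE 0.12, limma adjusted p = 0.000293). Its values were 9603 to 14504 in monogamous females, 7364 to 9867 in polygamous females and 3659 to 6132 in the 6 males. The sexes do not overlap in Lsd-1, and 4.99% of tested genes were likewise wholly lower in males. The lipase gene dob fell by 1.39 (adjusted p = 0.00124) and Lsd-2, the second perilipin, by 0.57 (adjusted p = 0.00145). The fitted difference of Lip4 was -0.50 (adjusted p = 0.048), a call lost without the outlying female library (-0.40, adjusted p = 0.052) and without any 1 of 5 populations (adjusted p = 0.0604 to 0.132). The main triglyceride lipases did not pass the test: bmm differed by -0.04 (adjusted p = 0.825) and Hsl by 0.10 (adjusted p = 0.0883), and Hsl group means ran from 3237 ± 65.9 to 3528 ± 112.

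Among 10 fat transport and oxidation genes 5 were called lower in males and 1 higher, and 7 lower and 0 higher after TMM rescaling. The shares of all genes were 9.27% lower and 20.2% higher, and 14.5% and 8.01% after TMM rescaling. Mcad, an acyl-CoA dehydrogenase, fell by 0.79 log2 units (SE 0.15, adjusted p = 0.00302). The thiolase yip2 fell by 0.52, Mtpalpha by 0.43 and the carnitine palmitoyltransferase whd by 0.29. LpR1, a lipophorin receptor, was 0.26 higher, a call lost after TMM rescaling. Under monogamy females had 16254 ± 5197 of Mcad against 9556 ± 1338 under polygamy, a difference of 0.73 that did not pass (adjusted p = 0.234).

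Glycogen and trehalose genes gave 6 of 10 lower and 1 higher in males, and 8 and 1 after TMM rescaling. All genes gave 9.27% and 20.2%, and 14.5% and 8.01% after TMM rescaling. The most female-biased was tobi, an alpha-glucosidase gene that responds to insulin-like peptides and AKH. It fell by 2.14 log2 units in males (SE 0.44, limma adjusted p = 0.0051). Its values were 8721, 3646 and 7847 in monogamous females and 5078, 2173 and 1388 in polygamous females, against 1289, 605 and 1075 in monogamous males and 1967, 430.1 and 728 in polygamous males, and the sexes overlap. The gluconeogenic enzyme fbp fell by 1.02 and Tps1, which makes trehalose, by 1.03. UGP fell by 0.45 and Tret1-1, a trehalose transporter, by 0.49, whereas Pepck1 rose by 0.75 (adjusted p = 0.0187).

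In the comparison of mating systems the same 10 carbohydrate genes all had positive differences, in males (median 0.25, beside -0.02 for all genes) and in females (median 0.27, beside -0.03). The 2 comparisons share no libraries but share 1 estimate of spread, and no member was called in either, with 2 in males and 3 in females at an unadjusted p under 0.05. DESeq2 called Tret1-1 in females. Glycogen phosphorylase (Glyp), the enzyme AKH activates, came nearest in males. Monogamous males held 36521 ± 1385 and polygamous males 28350.5 ± 1669 (SD, n = 3), a difference of 0.37 (SE 0.08, limma adjusted p = 0.0755). With edgeR on the recovered reads it was 0.39 (adjusted p = 0.0492), and without the outlying female library, which enters only the shared spread, 0.37 (adjusted p = 0.00622). In females Glyp differed by 0.02 (adjusted p = 0.915). Without that library 5 of the 73 genes were called in males (6.85%), beside 8.15% of all genes, so the list did not stand above the background there.

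Hormones that act against or beside AKH were called in both directions between the sexes. In males 4 of 9 were higher and 3 lower, beside 20.2% and 9.27% of all genes. Among the insulin-like peptides, Ilp6, a product of fat body, fell by 0.99 log2 units (SE 0.13, adjusted p = 0.000555) and Ilp3 by 0.65 (adjusted p = 0.00147). Ilp2 differed by 0.20 (adjusted p = 0.0279), a call lost after TMM rescaling, and Ilp5 by 0.16 (adjusted p = 0.397). ImpL2, a secreted protein that binds insulin-like peptides, rose by 0.67 (adjusted p = 0.00195). The fat body peptide CCHa2 was 0.49 higher in males. Its receptor CCHa2-R was 0.26 higher, a call lost after TMM rescaling (adjusted p = 0.159), with edgeR (0.155) and with DESeq2 (0.153). After TMM rescaling 2 of the 9 genes were called higher and 3 lower, beside 8.01% and 14.5% of all genes. Between mating systems in males none passed, with Ilp2 at -0.22 (adjusted p = 0.346) and ImpL2 at -0.36 (adjusted p = 0.432).

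Among the peptides and receptors related to AKH, none was called. Corazonin (Crz), a related peptide, had group means of 1250 ± 82.5 to 1429 ± 145, and its sex difference was 0.06 (adjusted p = 0.623). Its receptor CrzR had means of 987 ± 43.1 to 1200 ± 7.7, and its sex difference was 0.09 (adjusted p = 0.22). This holds for limma and edgeR over 4 genes and 3 comparisons, with 1 gene in males, 2 in females and 1 between the sexes at an unadjusted p under 0.05, while without the outlying female library 1 was called between the sexes and DESeq2 called CrzR higher in monogamous females (0.29, adjusted p = 0.0219). In males CCAP, a peptide whose receptor is related to AkhR, stood at 41.6 ± 5.83 under monogamy and 62.7 ± 0.761 under polygamy (-0.59, adjusted p = 0.243).

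**Figure D5:**
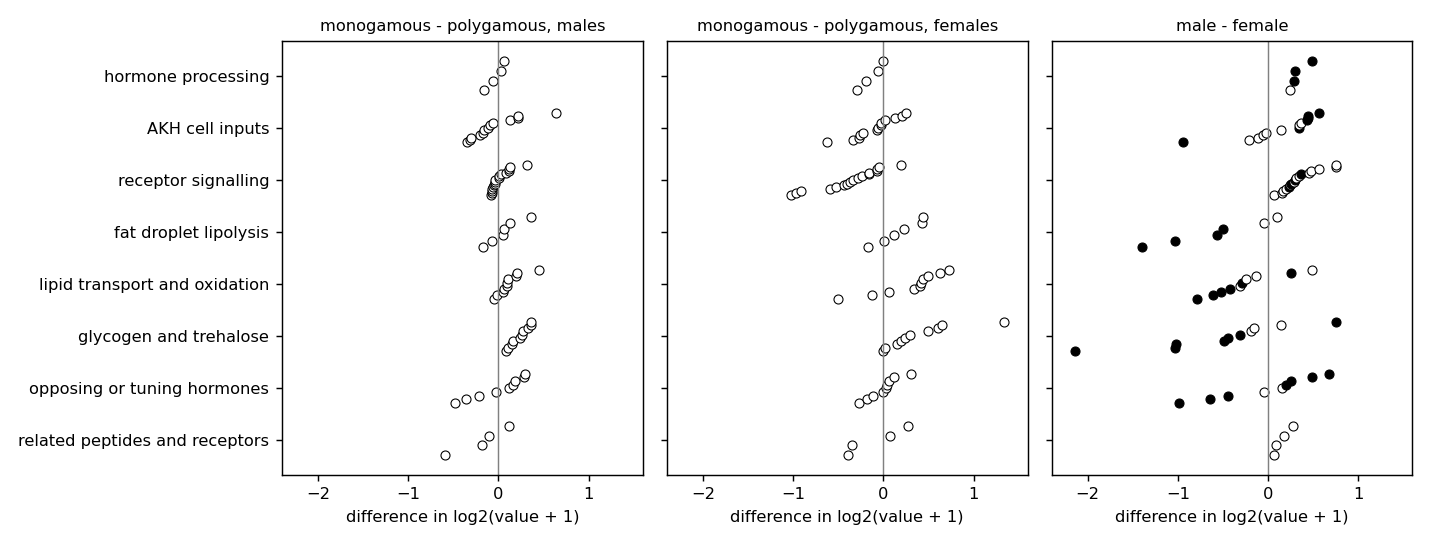
Fitted differences in log2(value + 1) for the 73 listed genes, 1 point per gene, arranged by list. Filled points passed a limma adjusted p of 0.05 and open points did not. The panels of mating systems hold 0 filled points, and in the panel of the sexes filled points lie left of 0 mainly among the droplet, fat and glycogen lists.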

How the data were processed

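Per the submitters' processing notes, the tools were TopHat2, HTSeq and DESeq2 and the genome build BDGP5. The deposited values are a signal, reads per gene scaled by 1 factor per library, and summed to 45916923 to 45943793 per library. Dividing by the value of 1 read gave whole reads for 100% of values (tolerance 0.1 reads). No column was left unused (0). The members and gene lists were chosen with earlier results of these data known.

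Genes with a mean of 10 or more (10568) were fitted as log2(value + 1) with limma 3.58.1 in R 4.3.3, with 1 mean per group over 12 libraries. Unless another tool is named, adjusted p is limma's after Benjamini-Hochberg adjustment. P-values compare populations. Exact permutations used scipy 1.17.1. Recovered reads were also tested with edgeR 4.0.16 and DESeq2 1.42.0, and the limma script was tested on simulated data. Other alternatives were a pseudocount of 8, no filter, TMM and upper-quartile rescaling, fitting only the groups compared, a replicate block and leaving out each population. Symbols and exon lengths came from a later annotation than BDGP5, so no coordinates are given. Lengths may differ from those counted, and whether counting used strand is not given in the sources used here.

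Named genes were a fixed set (Akh, AkhR, Lst, Crz, CrzR, Ilp2, Ilp3, Ilp5, bmm, Hsl, Lsd-1, tobi, amon, AstA-R2), up to 6 called members of each list by smallest p, or the 2 with the smallest p where none was called, of which only some are printed, and the 6 genes most and 3 least like each member. Cyp4g1 and other markers were added for their lists. Some listed genes, such as InR, Phm and CrebB, are not analysed here. The labels give both sexes of a population 1 number, and the correlation of their residuals was 0.0908 to 0.474, so the replicate block treats them as paired.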

Additional observations from a re-analysis of the deposited data

How the results depend on the processing

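AkhR stayed lower in males under all alternatives, from -1.10 to -1.31. With the replicate block it was -1.15, again a description that holds the female libraries by which AkhR was chosen. That block changed no call on the members. Akh between the sexes was 0.73 after TMM rescaling, 0.69 after upper-quartile rescaling and 0.66 with edgeR, 0.67 with DESeq2 and 0.84 with the replicate block, and ran from 0.69 to 0.94 with 1 population left out. Akh between female groups ran from -0.66 to 0.08 with 1 population left out, and was 0.03 without the female library of monogamous population 1. AkhR between male groups ran from -0.078 to 0.047 with 1 population left out, and was 0.017 after TMM rescaling, 0.021 with edgeR and 0.019 with DESeq2. The differences that chose the members kept their sign, Akh in males from -1.86 to -2.23 and AkhR in females from 0.45 to 0.59.

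Of the 73 listed genes, the count called between male groups, 0 on the deposited scale, was 1 with edgeR and with DESeq2 and 3 when males alone were fitted. Of all 10568 genes, 68 were called on the deposited scale, 114 with edgeR, 400 with DESeq2 and 423 with males alone. The listed count was 0 to 4 with 1 population left out, the highest without monogamous population 1, and 5 without the female library of that population. For all genes these counts were 0 to 466 and 861. Between female groups the listed count was 4 with DESeq2, beside 270 of all genes. Between the sexes it was 23 to 53 with 1 population left out, 54 without that female library, and 27 (6 higher, 21 lower) after upper-quartile rescaling. For all genes the counts were 1709 to 5247, 5460 and 1798. In repeats of the named sex differences 399 kept the call, 91 lost it and none changed sign, and the cause was not tested. Leaving out the outlying female library kept 4 of the 9 genes alike to Akh and 5 of those alike to AkhR. With 3 populations a group, no exact permutation between mating systems can go below 0.1.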
